A study of Mus musculus with 20 samples.

Results

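Glial, progenitor and fibroblast marker transcripts were followed in axonal and somatodendritic RNA of cultured mouse motoneurons. The 9 genes, chosen by symbol from 39174 genes in the files, were Vim, Sox2, Sox9, Fabp7, Slc1a3, Gfap, Sox10, Col1a1 and Col1a2. Each had 1 row in all 20 libraries. They serve as a measure of RNA from cells other than neurons on either side of the chamber and of its change when Tdp-43 is depleted. After meninges and dorsal root ganglia had been taken off, spinal cord cells of CD-1 embryos from mid-gestation were enriched for motoneurons by binding to an antibody against p75, and were grown in microfluidic chambers, in which axons reach a compartment separate from the cell bodies and dendrites. Control cultures carried an empty lentiviral vector, and Tdp-43 knockdown cultures a lentiviral shRNA against the Tdp-43 transcript, so that both were transduced. There were 4 control and 6 knockdown libraries from each compartment. The labels name no culture, so that p-values measure only the spread between these libraries, which may be technical.

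Vim codes for vimentin, the intermediate filament of neural progenitors, glia, fibroblasts and other mesenchymal cells. In the embryonic spinal cord, radial glia line the ventricle, divide to give neurons and later astrocytes and oligodendrocytes, and express the transcription factors Sox2 and Sox9, the fatty acid binding protein Fabp7 and the glutamate transporter Slc1a3. Gfap is the intermediate filament of astrocytes, Sox10 a transcription factor of neural crest, Schwann cells and oligodendrocyte precursors, and Col1a1 and Col1a2 code for the chains of type I collagen, the main fibrillar collagen made by fibroblasts. In bulk RNA, fewer cells of a type and less RNA per cell cannot be told apart.

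The labels were checked on Tardbp, which encodes Tdp-43. In somatodendritic libraries it was at 19 to 30.8 FPKM in controls and 0 to 8.54 in knockdown, with no overlap (log2 difference -3.06, SE 0.57, limma adjusted p = 0.0228). In the axonal compartment it was at 13.4 to 32.3 FPKM in controls and 1.21 to 14 in knockdown replicates 2 to 6, but at 33.2 in the library labelled axonal knockdown replicate 1, and the difference did not pass (-1.71, SE 0.63, limma adjusted p = 0.427). Called results of the axonal knockdown group are therefore also given without that library. Axonal knockdown replicates 3 and 4 stood apart too, with pan-neuronal sums of 1987 and 1771 FPKM against 712 to 775 in the other 4, and called results of other genes are also given without both. Relative depth ran from 0.103 to 1, the deepest library, and was under 0.5 in axonal knockdown replicates 2, 4 and 5 and somatodendritic knockdown replicates 5 and 6. Of the motoneuron markers looked at, Chat, Mnx1 and Isl2 were listed at 0 in all 20 libraries, Isl1 was above 0 in 8 libraries (at most 8.03 FPKM), and the whole list of 8 genes, of which Slc18a3 has no row, summed to between 0 and 8.90 FPKM. The 10 pan-neuronal genes summed to between 554 and 2769 FPKM.

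RefSeq promoter sequences on GRCm38.p6 matched 6 of the 9 members: Vim, Sox2, Col1a2, Fabp7, Gfap and Slc1a3. Those of Vim, Fabp7 and Gfap are shown because these transcripts had the smallest p-values of the 6 in the comparisons that follow. Each runs 5′ to 3′ on the strand of the gene, from 250 bases before the annotated start of transcription to 30 bases after it. Vim lies at chr2:13574061-13574340 on the plus strand, Fabp7 at chr10:57784673-57784952 on the plus strand and Gfap at chr11:102897171-102897450 on the minus strand. All 3 RefSeq starts lie inside the gene intervals of the files, which begin farther upstream. Capitals mark TATAAA in Vim and TTCNNNGAA, the letters that STAT factors bind, in Gfap.
Vim promoter: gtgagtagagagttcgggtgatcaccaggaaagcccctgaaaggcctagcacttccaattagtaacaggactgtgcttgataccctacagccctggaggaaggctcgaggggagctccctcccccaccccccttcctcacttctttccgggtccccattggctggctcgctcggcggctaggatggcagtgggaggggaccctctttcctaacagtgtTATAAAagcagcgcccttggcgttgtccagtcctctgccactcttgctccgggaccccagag
Fabp7 promoter: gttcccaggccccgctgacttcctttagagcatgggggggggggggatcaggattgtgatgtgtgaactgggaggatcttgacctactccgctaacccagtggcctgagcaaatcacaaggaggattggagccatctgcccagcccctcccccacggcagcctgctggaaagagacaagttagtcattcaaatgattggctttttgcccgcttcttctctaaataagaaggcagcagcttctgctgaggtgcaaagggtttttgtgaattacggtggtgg
Gfap promoter: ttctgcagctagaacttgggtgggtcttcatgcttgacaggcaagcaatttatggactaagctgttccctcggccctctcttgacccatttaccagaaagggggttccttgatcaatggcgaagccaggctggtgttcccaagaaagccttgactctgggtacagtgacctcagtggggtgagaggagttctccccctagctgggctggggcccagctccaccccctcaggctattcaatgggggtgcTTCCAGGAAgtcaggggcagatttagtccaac
TATAAA began 32 bases before the start in Vim, and TTCNNNGAA began 2 bases before it in Gfap. Searched on both strands over the whole 300 bases, TATAAA is in 13.6% of 32851 promoters and TTCNNNGAA in 8.30%. Slc1a3 also held both motifs. Fabp7 held none of the 5 that were searched, which were these, GGGCGG (35.7% of promoters), ACAAAG (18.7%) and TGANTCA (7.81%). GGGCGG was in Sox2, Col1a2 and Slc1a3, and ACAAAG, the core bound by Sox proteins, in Sox2. The motifs do not overlap in these promoters, and a match describes the letters only.

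FPKM counts fragments per kilobase of transcript, relative to all mapped fragments of the library, so that levels of different genes can be compared. In control somatodendritic libraries the order by mean was Fabp7 at 173 ± 42.6 FPKM (SD, n = 4), Vim at 150.2 ± 49.6 and Slc1a3 at 87.4 ± 18.7. Sox2 followed at 15.2 ± 6.74, Sox9 at 11.5 ± 1.71, Gfap at 9.36 ± 1.68 and Sox10 at 4.91 ± 1.19. Col1a1 had a mean of 2.66 and Col1a2 of 0.576 FPKM, the latter with 2 of 4 libraries listed at 0. Fabp7 and Vim overlapped in range, as did Sox2, Sox9 and Gfap with each other, and Sox10 with Col1a1. The radial glial transcripts thus stood highest of the 9 and collagen lowest in this compartment.

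The order differed in axonal libraries. Vim came first there at 448 ± 82.0 FPKM (SD, n = 4) in controls, its range clear of every other member. Fabp7 (93.8 ± 101) and Slc1a3 (69.7 ± 71.4) followed with overlapping ranges, and Col1a1 (26.4 ± 11.6) stood in the fourth place, overlapping Sox2 (17.4 ± 9.15). The 9 transcripts summed to 524 to 849 FPKM in control axonal libraries and 406 to 581 in control somatodendritic libraries. The ranges overlapped, axonal replicate 3 (524) lying below somatodendritic replicate 4 (581). Without Vim the sums were at 109 to 483 against 263 to 359 FPKM. Relative to the pan-neuronal sum of the same library, the 9 transcripts came to 0.838 to 1.23 in control axonal and 0.191 to 0.315 in control somatodendritic libraries. In knockdown cultures the range was 0.144 to 1.54 in axonal libraries, with replicates 3 (0.213) and 4 (0.144) at the level of somatodendritic libraries (0.124 to 0.209). The pan-neuronal sum itself was lower in control axonal libraries, at 554 to 743 against 1846 to 2127 FPKM.

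**Figure D1:**
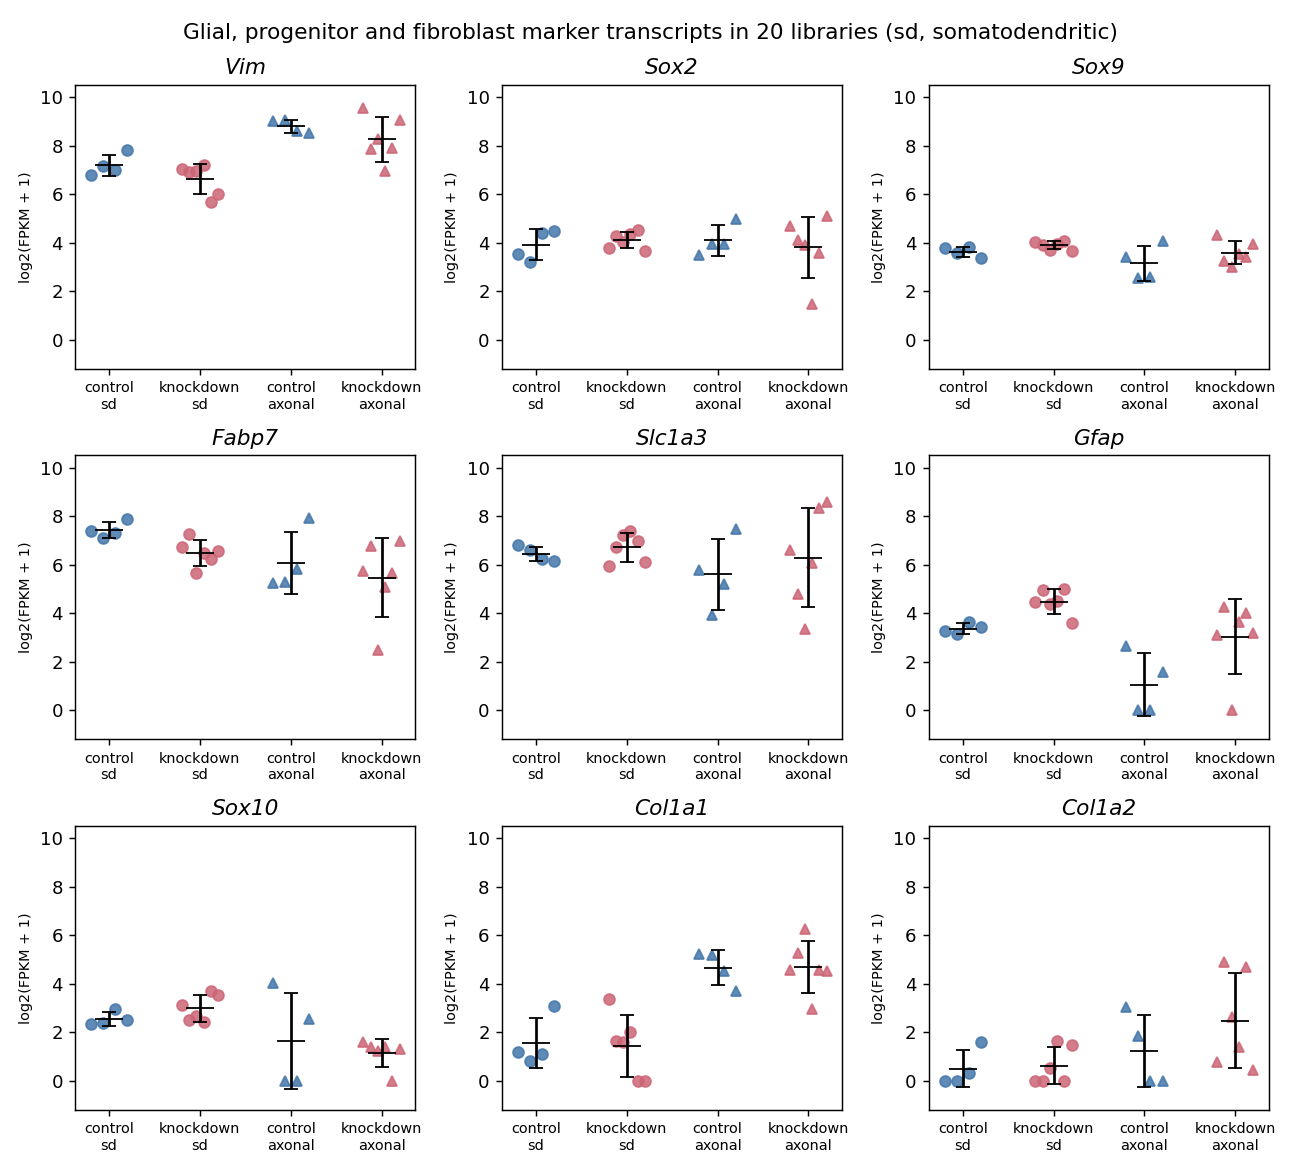
Levels of the 9 transcripts as log2(FPKM + 1), as deposited, in 4 control and 6 knockdown libraries of each compartment (sd, somatodendritic; circles somatodendritic, triangles axonal; blue control, red knockdown). Each point is 1 library, with replicates from left to right, and black marks give mean and SD of the plotted values; all 4 control axonal libraries lie above all control sd libraries for Vim and Col1a1, and Fabp7, Slc1a3 and Gfap spread widely among axonal libraries.

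To compare the compartments, all 20 libraries were scaled to each other and tested as log2(FPKM + 1) with limma. On this scale a difference understates the change of transcripts at low FPKM. Vim and Col1a1 were higher in axonal than in somatodendritic libraries in control cultures and again in knockdown cultures, and the other 7 members did not pass an adjusted p of 0.05 in either. In controls 2 of 9 members were called higher, against 1.44% of 14062 genes tested, and none lower (limma, background 0.661%). At an unadjusted p under 0.05 these 2 were higher (background 8.09%) and Gfap was lower (1 of 9, background 7.31%). In knockdown cultures 2 of 9 were called higher (background 2.93%) and none lower (background 2.42%), and at an unadjusted p under 0.05 Col1a2 was also higher (3 of 9, background 9.52%) and Sox10 lower (1 of 9, background 11.1%). Vim and Col1a1 were again the 2 members that passed without the library labelled axonal knockdown replicate 1 (limma, backgrounds 2.26% higher and 1.8% lower) and without replicates 3 and 4. This last fit called more of all 13990 genes tested, 6.15% higher and 7.11% lower, and its calls stand against these shares. It leaves out the axonal libraries with pan-neuronal sums nearest the somatodendritic ones, a choice that tends to widen differences between compartments. Its calls, here and below, are therefore no separate support.

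Vim (ENSMUSG00000026728, chromosome 2, 13573927 to 13582826 of GRCm38) was at 509, 528, 390.4 and 365 FPKM in control axonal replicates 1 to 4. In control somatodendritic replicates 1 to 4 it was at 109.6, 143, 126 and 222 FPKM. Every control axonal library was above every control somatodendritic library. The scaled difference was 2.19 (SE 0.42, 95% interval 1.33 to 3.06, limma adjusted p = 0.00653), a 4.57-fold difference. In knockdown cultures axonal Vim ran from 121 over a median of 274 to 747 FPKM, and somatodendritic Vim from 49.4 over 121 to 146. Here 5 of 6 axonal libraries as deposited, and 6 of 6 after scaling, lay above all somatodendritic ones, with a difference of 1.89 (SE 0.34, limma adjusted p = 0.00327). Without the library labelled axonal knockdown replicate 1, which had the highest Vim of all 20, it was 1.68 (limma adjusted p = 0.00771), and without replicates 3 and 4 it was 2.29 (adjusted p = 0.000115).

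Col1a1 (ENSMUSG00000001506, chromosome 11, 94936224 to 94953042), the α1 chain of type I collagen, was at 36.5, 35.0, 22.2 and 11.9 FPKM in control axonal replicates 1 to 4. The somatodendritic replicates had 1.25, 0.765, 1.17 and 7.45 FPKM, so that the groups did not overlap, replicate 4 coming closest on both sides. The scaled difference was 3.65 (SE 0.68, 95% interval 2.24 to 5.05, limma adjusted p = 0.00606), or 12.5-fold. In knockdown libraries Col1a1 was at 6.64, 22.4 and 74.6 FPKM (lowest, median and highest) in axons and at 0, 2.05 and 9.41 in the somatodendritic compartment, where replicates 5 and 6, the shallowest of that group, were listed at 0. The difference was 3.34 (SE 0.56, limma adjusted p = 0.00177), 3.41 (limma adjusted p = 0.00371) without the library labelled axonal knockdown replicate 1, and 3.44 (adjusted p = 0.000549) without replicates 3 and 4. From the length of its longest transcript, control somatodendritic values rest on 1.96 to 23.7 estimated fragments and control axonal values on 26.6 to 92.5. With a pseudocount of 0.1 in place of 1, the control difference was 4.31 but no longer passed (limma adjusted p = 0.0687).

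Col1a2 (ENSMUSG00000029661, chromosome 6, 4504814 to 4541543), the α2 chain that joins Col1a1 in the collagen fibril, was lower than Col1a1 in every control axonal library and in 5 of 6 knockdown ones. It was at 7.17 and 2.54 FPKM in control axonal replicates 1 and 2 and listed at 0 in replicates 3 and 4. In control somatodendritic libraries it was listed at 0 in replicates 1 and 2 and was at 0.259 and 2.04 in replicates 3 and 4. Axonal knockdown replicates 1 to 6 had 0.681, 28.8, 5.13, 1.64, 24.9 and 0.368 FPKM. Only replicates 2 and 5 of these exceeded 10 FPKM, and both had a relative depth under 0.5. Somatodendritic knockdown libraries were at 0 to 2.07 FPKM, 3 of 6 listed at 0. The difference between compartments was 1.90 in knockdown (SE 0.77, limma adjusted p = 0.156) and 0.96 in control (SE 0.94, limma adjusted p = 0.697). It was 0.66 in knockdown with the libraries of at least 0.5 relative depth alone.

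The members named for astrocytes and for Schwann cells and oligodendrocyte precursors did not follow Vim and Col1a1. Gfap (ENSMUSG00000020932, chromosome 11, 102887336 to 102900912) was at 8.48, 7.71, 11.5 and 9.70 FPKM in control somatodendritic replicates 1 to 4, and at 5.22, 0, 0 and 1.98 in the axonal ones. As deposited, each axonal value lay below each somatodendritic one, and after scaling 3 of 4 did. The difference of -2.03 (SE 0.75) did not pass adjustment (limma adjusted p = 0.170). The 2 values above 0 in axons correspond to at most 5.90 estimated fragments. In knockdown libraries Gfap was at 0, 9.87 and 18.2 FPKM (lowest, median, highest) in axons against 10.9, 21.3 and 30.7 in the somatodendritic compartment, a difference of -1.12 (SE 0.61, limma adjusted p = 0.310).

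Sox10 (ENSMUSG00000033006, chromosome 15, 79154913 to 79164490) was at 15.3, 0, 0 and 4.82 FPKM in control axonal replicates 1 to 4 and at 4.11, 4.18, 6.65 and 4.72 in the somatodendritic ones. The axonal values lay on both sides of the somatodendritic ones (difference -0.61, SE 0.74, limma adjusted p = 0.765). In knockdown libraries it was at 0 to 2.01 FPKM in axons and 4.40 to 12 in the somatodendritic compartment. All 6 axonal values lay below all 6 somatodendritic ones, but the difference of -1.61 (SE 0.60) did not pass adjustment (limma adjusted p = 0.122). These axonal values rest on 0 to 3 implied fragments each. Among the Schwann cell and crest markers, Gas7 was above 0 in all 20 libraries (at most 16.9 FPKM), Pmp22 in 16 (at most 27.1) and Egr2 in 11 (at most 33.6), while Cdh19 was listed at 0 in all 20.

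The other 4 progenitor members did not differ between compartments beyond their spread. Fabp7 (ENSMUSG00000019874, chromosome 10, 57784881 to 57788450) was at 37.3, 37.7, 56.2 and 244 FPKM in control axons and at 165, 135, 158 and 234 in the somatodendritic compartment (difference -0.75, SE 0.73, limma adjusted p = 0.696). Slc1a3 (ENSMUSG00000005360, chromosome 15, 8634124 to 8710764) was at 54.4, 14.4, 36.1 and 174 FPKM against 109.5, 96.0, 73.6 and 70.3 (-0.27, SE 0.86, limma adjusted p = 0.934). For both, axonal replicate 4 was above all control somatodendritic libraries and the other 3 axonal replicates below them. The 12 astrocyte genes summed to 868 FPKM in that library and to 148 to 261 in the other 3. Without that library the difference was -1.35 for Fabp7 (limma adjusted p = 0.385) and -0.86 for Slc1a3 (adjusted p = 0.709). Knockdown axons spread as widely, with Slc1a3 at 9.21, 81.7 and 384 FPKM (lowest, median, highest) and Fabp7 at 4.55, 50.9 and 125, against 60.0, 114 and 165 for Slc1a3 and 49.4, 91.1 and 151 for Fabp7 in the somatodendritic compartment.

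Sox9 (ENSMUSG00000000567, chromosome 11, 112782224 to 112787760) was the steadiest member, at 4.88 to 15.8 FPKM in control axons and 9.30 to 13.1 in the somatodendritic compartment. Its difference was 0.04 in control, with a 95% interval of -0.76 to 0.85, and -0.07 (-0.72 to 0.59) in knockdown. Sox2 (ENSMUSG00000074637, chromosome 3, 34650005 to 34652461) was at 10.3 to 30.9 FPKM against 8.30 to 21.6 in control, a difference of 0.73 (95% interval -0.42 to 1.88), and at 1.78 to 33.6 against 11.7 to 22.1 in knockdown (-0.06, -1.0 to 0.88). The groups overlapped in both conditions for both genes. Sox2 lies within the long noncoding gene Sox2ot on the same strand without sharing an exon. Sox2ot was at 0 to 17.8 FPKM over the 20 libraries and did not differ either (0.01 in control, limma adjusted p = 1.0). Gfap overlaps the noncoding gene Gm26668 on the opposite strand, which was at most at 2.16 FPKM.

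**Figure D2:**
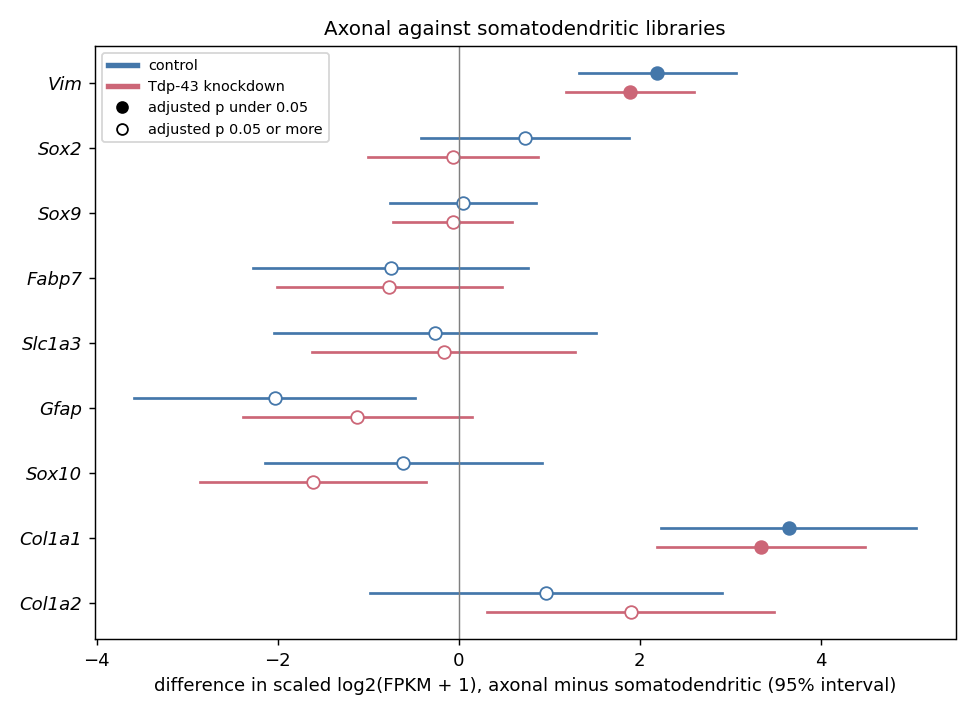
Difference between axonal and somatodendritic libraries for each of the 9 transcripts, in scaled log2(FPKM + 1), with 95% intervals, for control (blue, 4 against 4) and knockdown (red, 6 against 6). Filled points passed a limma adjusted p of 0.05: Vim (2.19 and 1.89) and Col1a1 (3.65 and 3.34) in both conditions.

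Other genes of the same cell types were taken from marker lists. Of 19 further fibroblast and mesenchyme genes, 15 had enough signal for the test, and 7 of these were higher in control axons (limma, background 1.44%), 8 in knockdown axons (background 2.93%), none lower in either (backgrounds 0.661% and 2.42%). The median of the 15 differences was 2.39 in control and 2.41 in knockdown, and that of all genes -0.03 and -0.05. The filter, a mean of at least 1 FPKM over all 20 libraries, let in some genes through their axonal values. Within somatodendritic libraries alone 8 of the 19 reached it, against 15 within axonal ones. For genes that entered this way the filter itself favours a positive difference, so the median and the shares are not free of it. Sparc, Col5a2, Fn1, Fbn1 and Tagln were called in both conditions, Lox and Acta2 in control, and Col6a1, Col5a1 and Cd248 in knockdown. Fibronectin (Fn1) differed by 3.75 in control (SE 0.61, limma adjusted p = 0.00235) and by 3.47 in knockdown (SE 0.50, adjusted p = 0.000606). Sparc, a collagen-binding matrix protein, was at 376 to 919 FPKM in control axonal libraries and 104 to 228 in somatodendritic ones. Tagln, an actin-associated protein, and Acta2, an actin, both of smooth muscle and myofibroblasts, differed by 3.84 (SE 0.71) and 3.42 (SE 0.90) in control. Part of the list was hardly detected. Col3a1 was above 0 in 9 of 20 libraries (at most 9.57 FPKM), Dcn in 7 (4.16), Postn in 6 (14.8), Lum in 2 (2.54) and Col6a3 in 1 (0.203). Sparc, Fn1, Fbn1, Col5a1, Tagln and Acta2 were above 0 in all 20. Sparc and Acta2, at most at 3111 and 2472 FPKM, weigh most in the list sum. The list summed to 1362 to 2190 FPKM in control axonal and 162 to 549 in control somatodendritic libraries. In axonal knockdown libraries it ran from 451 FPKM in replicate 4, within the range of the somatodendritic libraries, to 6746 in the library labelled replicate 1. Without that library the 8 genes called in knockdown axons were called again (background 2.26%). Without replicates 3 and 4 they were too, among 11 of 15 called (background 6.15%), which is no separate support, as given above.

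Of 12 neural progenitor genes Nes, the intermediate filament partner of vimentin, was higher in axons, by 3.51 in control (SE 0.65, limma adjusted p = 0.00606) and 2.58 in knockdown (SE 0.53, adjusted p = 0.00798; 2.35 without the library labelled replicate 1, adjusted p = 0.0198, and 3.38 without replicates 3 and 4, adjusted p = 7.91e-05), and the other 11, among them Ptn, Ttyh1 and Pax6, did not pass in either. Of 12 astrocyte genes 10 were tested, and Sparcl1 alone was called, lower in knockdown axons by a difference of -1.47 (SE 0.43, limma adjusted p = 0.0472). It did not pass without the library labelled replicate 1 (limma adjusted p = 0.0774) or without replicates 3 and 4 (adjusted p = 0.128). The median difference of the 10 was -0.46 in control and -0.89 in knockdown. None of the 10 oligodendrocyte genes tested passed, Olig1, Olig2 and Mbp being the most abundant, and 8 of 10 differences were negative in either condition (limma, unadjusted p under 0.05 for 2 lower in control, background 7.31%, and for 3 lower and 1 higher in knockdown, backgrounds 11.1% and 9.52%). Single genes of these lists were also called without replicates 3 and 4, where 6.15% of all genes passed higher and 7.11% lower (limma), and no list is described by them. Cspg4, a proteoglycan of oligodendrocyte precursors and pericytes, was then higher in knockdown axons (1.70, SE 0.54, limma adjusted p = 0.0429). Among astrocyte genes the same fit called Gja1 higher (1.35, SE 0.29, limma adjusted p = 0.00435) and Slc1a2 lower (-1.91, SE 0.38, adjusted p = 0.00247). It also called the progenitor gene Pax6 higher (1.77, SE 0.37, limma adjusted p = 0.00333) and the crest gene Tfap2a lower (-1.76, SE 0.48, adjusted p = 0.0196). Of 4 Schwann cell and crest genes tested, the peripheral myelin gene Pmp22, which fibroblasts also express, was higher in knockdown axons (2.46, SE 0.65, limma adjusted p = 0.0301), but not without the library labelled replicate 1 (2.38, adjusted p = 0.0551). Without replicates 3 and 4 it passed (3.19, limma adjusted p = 0.000469). All 10 pan-neuronal genes had negative differences in both, and 5 of 10 were called lower in each condition (limma, backgrounds 0.661% in control and 2.42% in knockdown), such as Stmn2 (-1.31, SE 0.25, and -1.37, SE 0.20) and Gap43 (-1.25, SE 0.32, and -1.25, SE 0.26). In knockdown, 2 of the 5 passed without the library labelled replicate 1 (background 1.8%). No count is given without replicates 3 and 4, since these were set apart by this list. Endothelial and pericyte genes summed to at most 9.67 FPKM in a library, with Cldn5 and Kcnj8 listed at 0 throughout.

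**Figure D3:**
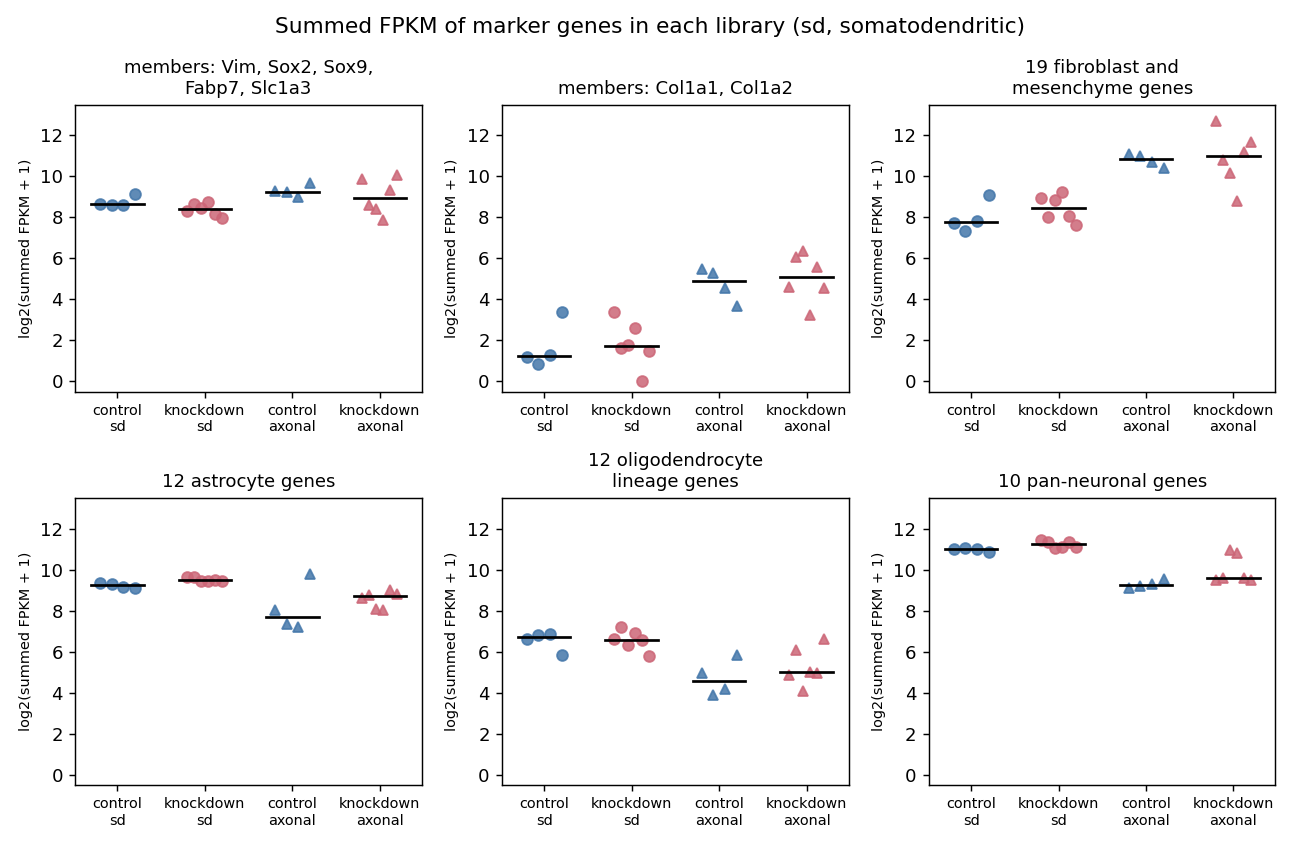
Summed FPKM, as log2(sum + 1), of member groups and marker lists in each library (1 point a library, replicates from left to right, bars at the group median; circles somatodendritic, triangles axonal; blue control, red knockdown). The medians of the 19 fibroblast and mesenchyme genes and of the collagen members are higher in axonal libraries and those of the 10 pan-neuronal genes lower, with knockdown replicates 3 and 4 near the somatodendritic level of pan-neuronal genes (1987 and 1771 FPKM), and the 12 astrocyte genes spread widely among control axonal libraries.

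The effect of the knockdown was first tested in the somatodendritic compartment, where libraries varied less. Of the 8 members tested none passed adjustment, against 0.974% of 13762 genes (limma). Col1a2 had a mean below 1 FPKM there and was not tested. At an unadjusted p under 0.05, Fabp7 and Vim were lower (2 of 8, background 9.22%) and Gfap was higher (1 of 8, background 4.59%). The median difference of all genes was -0.13. Of 12 other neural progenitor genes tested none passed adjustment (limma). At an unadjusted p under 0.05, 1 of them was higher (background 4.59%) and 0 lower (background 9.22%), with a median difference of -0.17. As deposited they summed to 272 to 339 FPKM in knockdown and 225 to 305 in control libraries.

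Fabp7 had the smallest p of the 8. It was at 165, 135, 158 and 234 FPKM in control replicates 1 to 4 and at 105, 151, 49.4, 89.0, 74.2 and 93.3 in knockdown replicates 1 to 6. As deposited, 5 of 6 knockdown libraries lay below all controls, and after scaling 6 of 6 did. The difference was -1.14 (SE 0.26, 95% interval -1.70 to -0.57, limma adjusted p = 0.0648). It passed adjustment with a pseudocount of 5 (-1.10, limma adjusted p = 0.0486) and without knockdown replicate 2, whose Fabp7 is the highest of its group (-1.29, limma adjusted p = 0.0214), and over the 8 settings other than leaving out a library in turn the adjusted p ran from 0.0486 to 0.191.

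Gfap went the other way. Against 7.71 to 11.5 FPKM in controls, knockdown replicates 1 to 6 had 20.9, 30.1, 19.8, 21.8, 30.7 and 10.9 FPKM. Replicates 1 to 5 were above every control, and replicate 6, the shallowest somatodendritic library, lay within the control range, at an estimated 2.97 fragments. The difference was 0.92 (SE 0.27, 95% interval 0.32 to 1.51, limma adjusted p = 0.140). It was 1.09 without replicate 6 (limma adjusted p = 0.0375) and 1.02 with only libraries of at least 0.5 relative depth (adjusted p = 0.0584). Of 10 other astrocyte genes tested none passed adjustment, and at an unadjusted p under 0.05 1 was higher (background 4.59%) and 1 lower (background 9.22%), near the shares of all genes. The glutamate transporter Slc1a2 was higher by 0.89 (SE 0.27, limma adjusted p = 0.141), Aldoc was lower by a difference of -0.36 (SE 0.14, adjusted p = 0.288), and the median of the 10 was 0.07.

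Vim was at 129, 119, 122 and 146 FPKM in knockdown replicates 1 to 4, within the control range of 109.6 to 222, and at 49.4 and 63.6 in replicates 5 and 6. The latter are the 2 somatodendritic libraries of lowest depth. The difference of -0.78 (SE 0.30, limma adjusted p = 0.279) was -0.37 without them. After scaling, 5 of 6 knockdown libraries had Vim below all controls, against 2 of 6 as deposited. Sox2, Sox9, Slc1a3, Sox10 and Col1a1 had unadjusted p-values of 0.473 to 0.983. Their differences lay between -0.23 for Col1a1 (95% interval -1.72 to 1.26) and 0.26 for Sox10 (-0.51 to 1.04), and those of Sox9 (0.05, -0.42 to 0.53), Slc1a3 (0.07, -0.54 to 0.67) and Sox2 (-0.01, -0.64 to 0.63) were the best bounded. Sox10 was at 4.40 to 12 FPKM in knockdown, its highest values of 12 and 10.6 again in replicates 5 and 6. Col1a1 was at 0 to 9.41.

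In axons none of the 9 members passed adjustment, against 0.401% of 13958 genes (limma). At an unadjusted p under 0.05 Vim was lower (1 of 9, background 6.46%) and none was higher (background 2.14%). The difference in Vim was -1.05 (SE 0.41, 95% interval -1.92 to -0.18, limma adjusted p = 0.463). Knockdown replicates 1 to 6 had 747, 230.4, 307, 121, 241 and 533 FPKM against 365 to 528 in controls, so that 4 lay below all controls and 2 above as deposited, while after scaling 4 were below and none above. Without the library labelled replicate 1 the difference was -1.26 (limma adjusted p = 0.277), without replicates 3 and 4 it was -0.66, and with libraries of at least 0.5 relative depth -0.44.

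Gfap was listed at 0 in 2 of 4 control axonal libraries and in 1 of 6 knockdown libraries, which were at 7.57, 18.2, 0, 11.6, 15.1 and 8.17 FPKM. As deposited, 5 of 6 knockdown values exceeded the highest control value of 5.22, and 4 of 6 after scaling. The difference was 1.75 (SE 0.85, 95% interval -0.05 to 3.55, limma adjusted p = 0.596). Fabp7 differed by -1.12 with a far wider interval than in the somatodendritic compartment (-2.80 to 0.56, limma adjusted p = 0.733), as control replicate 4 held 244 FPKM and knockdown replicate 3 held 4.55. It was -0.47 without knockdown replicate 3, -0.52 without control replicate 4 and -0.24 without knockdown replicates 3 and 4. Slc1a3 differed by 0.19 (-1.77 to 2.15), with knockdown replicates 5 and 6 at 324 and 384 FPKM and replicate 3 at 9.21. Replicate 3 had the lowest Fabp7, Slc1a3 and Gfap and the highest Col1a1 of the 6.

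The fibroblast members did not differ beyond their spread in axons. Col1a1 was at 6.64 to 74.6 FPKM in knockdown and 11.9 to 36.5 in control (-0.48, 95% interval -1.62 to 0.66, limma adjusted p = 0.834), and Col1a2 at 0.368 to 28.8 against 0 to 7.17 (0.99, -1.12 to 3.09, adjusted p = 0.819). Of 15 further fibroblast genes tested in axons, Cd248, a surface protein of fibroblasts and pericytes also called endosialin, was higher in knockdown (3.23, SE 0.67, limma adjusted p = 0.0484), at 3.57 to 29.0 FPKM against 0 to 0.90, and the other 14 did not pass. This is 1 of 15, where 0.401% of all genes passed in either direction. With controls all under 1 FPKM, Cd248 met the filter only through its knockdown values. Cd248 did not pass without the library labelled replicate 1 (3.32, limma adjusted p = 0.0659) or without replicates 3 and 4 (3.36, adjusted p = 0.0639). The median difference of all 15 was -0.19, that of the other 14 was -0.24 and that of all genes -0.17. Sox2 (-0.77, 95% interval -2.07 to 0.53), Sox9 (-0.04, -1.08 to 1.01) and Sox10 (-0.74, -2.47 to 0.99) did not pass either. For Sox10 the control side rests on replicates 1 and 4, with 15.3 and 4.82 FPKM, as the other 2 were listed at 0.

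Whether the knockdown acted differently in the 2 compartments was tested as an interaction over all 20 libraries. None of the 9 members passed adjustment (background 0.0711% of 14062 genes) or an unadjusted p under 0.05 (limma, background 5.61%). The interaction was -0.01 for Fabp7 (95% interval -1.98 to 1.95), -0.30 for Col1a1 (-2.12 to 1.51) and 0.91 for Gfap (-1.09 to 2.92). Intervals of this width do not bound the difference closely.

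**Figure D4:**
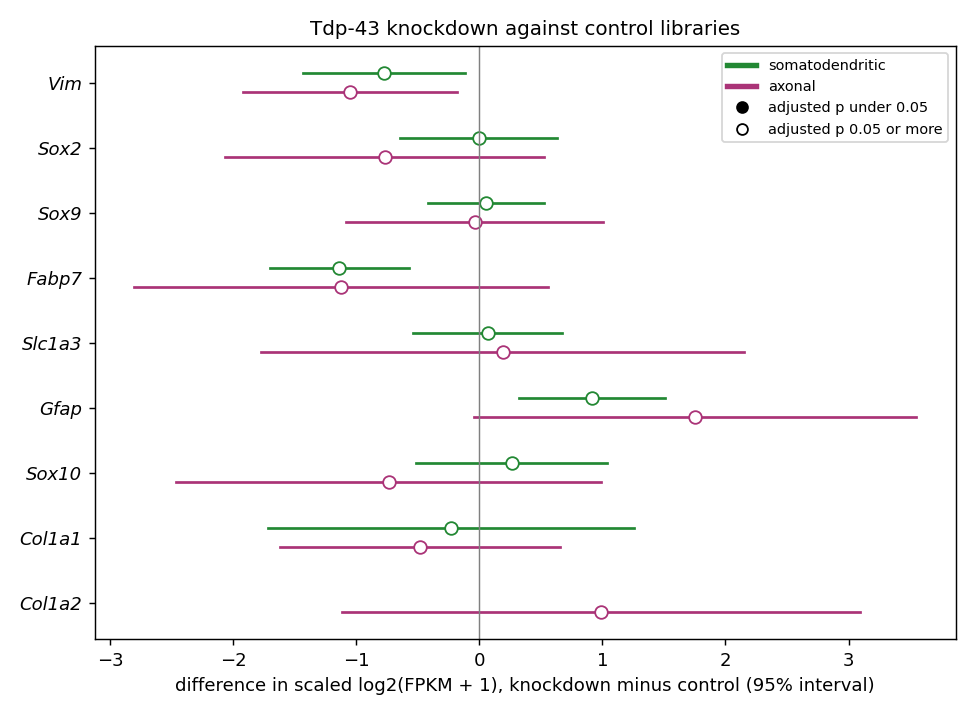
Difference between knockdown and control libraries for each transcript, in scaled log2(FPKM + 1), with 95% intervals, in the somatodendritic (green) and axonal (purple) compartment, 6 knockdown against 4 control libraries each. All points are open, as none passed a limma adjusted p of 0.05; Fabp7 (-1.14) and Gfap (0.92) in the somatodendritic compartment and Vim in both (-0.78 and -1.05) have intervals clear of 0, and Col1a2 was tested in axons alone.

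Genes whose profiles were most like those of the members were found among the 8839 genes averaging at least 5 FPKM, by the mean absolute difference of centred, scaled log2(FPKM + 1) over the 20 libraries. The measure is a description, as all genes share the libraries and their depth. For Vim the nearest were Tpm1 (0.33), Wls (0.37), Ctnna1 (0.39), Cnn3 (0.41) and Smtn (0.41), while the median gene was at 1.26. Among those nearest Col1a1 were Emp1 (0.61), Tagln (0.62), Ahnak (0.63) and Itgav (0.65), with Vim in place 52 (0.90). Fabp7 had Ptprz1 (0.60), Spon1, Sept9, Aldh5a1 and Glul (0.67), Gfap had Gm26751 (0.68), Apoe, Bcas1, Cdr1 and Gpc2 (0.78), and Slc1a3 had Pds5b (0.63), Emc3, Tmem47, 4933431E20Rik and Ppap2b (0.69), with Sox9 in place 14. Nearest Sox9 were Sptbn1 (0.24), Nedd4, Sall3, Qk and Plxna1 (0.27), and nearest Sox2 were Ndst1 (0.33), Lamp1, Atrnl1, Uba3 and Helz (0.39). A gene without any variation would lie at 1.08 from Vim, 1.75 from Col1a1, 0.90 from Fabp7 and 1.06 from Gfap. It would lie at 0.87 from Slc1a3, 0.56 from Sox2 and 0.28 from Sox9, where the median gene was at 0.75. The genes nearest Sox9, and Sox9 itself from Slc1a3 (0.72), were thus little closer than a flat gene. From Vim, Fabp7 stood in place 6722 and Gfap in place 8691 of the 8839, so that the progenitor and glial members did not share 1 profile over these libraries.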

How the data were processed

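Total RNA of the axonal and the somatodendritic compartment was reverse-transcribed, amplified by PCR and sequenced by the authors. The deposited values are FPKM with an interval for each gene, which the authors computed from the mapped fragments; GRCm38, FastQC 0.10.1 and Cufflinks 2.2.1 are named in the submitters' processing notes. The aligner and annotation version are not given in the sources used here beyond that. Whether fragments were counted by strand is not given either. Read totals are not in these tables, so relative depth was derived from the intervals, taken as ±2 SD of a fragment count, over 680 genes with more than 3 fragments in every library. Intervals cover counting error only, since amplified fragments are not independent molecules. For genes of several transcripts the interval can be wider, so fragments were also estimated from FPKM, the length of the longest transcript and depth. Values of at most 0.001 FPKM count as listed at 0. Implied fragments of Sox10, with 4 annotated transcripts, were whole within 0.05 in 100% of 17 values. Those of genes with 1 transcript of at least 1 kb were in 64.8%, and of Sox2 and Sox9, with 1 transcript each, in 65%. The share was 10% for Vim, 5% for Fabp7, 15% for Slc1a3, 0% for Gfap, 12.5% for Col1a1 and 33.3% of 3 values for Col1a2.

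Scale factors were medians of ratios, taken from genes at 1 FPKM or more throughout (7619 somatodendritic, 5112 axonal, 4577 over all 20). Values were set to log2(FPKM + 1), and tested with limma 3.58.1 in R 4.3.3 (eBayes with a trend) if the mean was at least 1 FPKM, with Benjamini-Hochberg adjustment over all genes and a threshold of 0.05. Knockdown was compared with control within each compartment, and the compartments and the interaction in 1 fit of 4 groups. The test was also run on simulated data, and the outcome of that run is not reported here. Python 3.11.15, numpy 2.4.6, pandas 2.3.3, scipy 1.17.1 and matplotlib 3.10.9 were used. The members and the lists were chosen with earlier results of these data known. Named are the 9 members, Tardbp, the called genes of 10 further marker lists or otherwise their 3 most abundant, genes that overlap a member, and the 5 nearest profiles of members with a mean of at least 5 FPKM. Markers singled out because they were listed at 0 or near 0, and Slc1a2, Aldoc, Gja1, Cspg4 and Tfap2a, were chosen after their values were seen. Of 108 further marker genes, Slc18a3 and Drgx have no row. Alternatives were other scalings, pseudocounts of 0.1 and 5, other filters, only libraries of at least 0.5 relative depth, the replicate number as a block, and leaving out each library; leaving out axonal knockdown replicates 3 and 4 together was added after the data had been seen. Promoters came from RefSeq. Protein sequences were not used here, and some further marker genes that the naming rule covers are not reported here.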

Additional observations from a re-analysis of the deposited data

Results flagged for a closer look

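In 5 of 36 groups of a member's values, 1 library lay farther from the rest than Dixon's test allows, which chance gives in about 1 of 20 groups. Fabp7 was at 244 FPKM in axonal control replicate 4, against 37.3 to 56.2 in the other 3. Sox10 was listed at 0 in axonal knockdown replicate 5, the library of lowest depth, against 1.35 to 2.01 in the other 5. Col1a1 was at 7.45 FPKM in somatodendritic control replicate 4 (0.765 to 1.25 in the others) and at 9.41 in somatodendritic knockdown replicate 1 (0 to 3.02 in the others). Col1a2 was at 2.04 FPKM in somatodendritic control replicate 4, which also had the highest Vim of its group (222 FPKM) and the highest sum of the 19 fibroblast and mesenchyme genes (549 FPKM).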

How the results depend on the processing

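Alternatives gave 901 values for 44 results of single members. Of these, 814 kept direction and side of the threshold, 83 turned direction, 3 newly passed and 1 no longer passed, and none of the 83 belongs to a result with a main unadjusted p under 0.05. The number of members passing adjustment in the somatodendritic compartment was 1 with a pseudocount of 5, and in the control comparison of compartments 1 with a pseudocount of 0.1. At an unadjusted p in axons, quantile normalization and a pseudocount of 5 each gave 2 members, and libraries of at least 0.5 relative depth 0; in the knockdown comparison of compartments a mean of at least 5 FPKM gave 2, as Col1a2 and Sox10 were then not tested. Summed FPKM of the 9 members, axonal over somatodendritic, was 1.48 in control and 1.76 in knockdown as deposited, 2.22 in control after scaling, and 4.69 and 5.11 relative to pan-neuronal genes.

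With FPKM as deposited, the knockdown difference turned to 0.19 for Sox2 in somatodendritic and to 0.43 for Sox9 and 0.0197 for Col1a1 in axonal libraries, the compartment difference of Sox9 to -0.48 in control, and the interaction to 0.0352 for Vim, 0.18 for Sox9, 0.30 for Fabp7 and 0.13 for Col1a1. Quantile normalization gave 0.0398 for Sox2 and 0.24 for Col1a1 (knockdown, somatodendritic), 0.12 for Sox9 (knockdown, axonal), -0.15 for Sox9 (compartments, control) and 0.0097 for its interaction. A pseudocount of 5 gave 0.0390 for Sox2 (compartments, knockdown) and 0.11 for the interaction of Fabp7, and one of 0.1 gave 0.38 for that of Col1a1. Libraries of at least 0.5 relative depth gave 0.0063 for Sox2, -0.0419 for Sox10 and 0.47 for Col1a1 (knockdown, somatodendritic), 0.0691 for Sox9 and -0.24 for Col1a2 (knockdown, axonal), 0.56 for Sox2 (compartments, knockdown), and interactions of -0.20 for Slc1a3, -0.18 for Gfap and -0.27 for Col1a2. Without axonal knockdown replicates 3 and 4, chosen after the data had been seen, the knockdown difference of Sox9 in axons was 0.16, compartment differences in knockdown were 0.55 for Sox2, 0.14 for Sox9, 0.12 for Fabp7 and 0.67 for Slc1a3, and interactions 0.11 for Vim, 0.11 for Sox9 and 0.89 for Fabp7. The cause of these turns was not tested.

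Leaving out 1 library at a time, members passing adjustment in the somatodendritic compartment numbered 0 to 1, and at an unadjusted p in axons 0 to 2. Knockdown differences that turned ranged, in somatodendritic libraries, from -0.23 to 0.17 for Sox2, -0.0510 to 0.11 for Sox9, -0.0492 to 0.24 for Slc1a3 and -0.60 to 0.27 for Col1a1, and in axonal ones from -0.25 to 0.25 for Sox9, -0.38 to 0.84 for Slc1a3 and -1.32 to 0.12 for Sox10. Compartment differences ranged in control from -0.25 to 0.26 for Sox9 and -0.86 to 0.31 for Slc1a3, and in knockdown from -0.36 to 0.38 for Sox2, -0.17 to 0.11 for Sox9 and -0.66 to 0.49 for Slc1a3. Interactions ranged from -0.33 to 0.18 for Sox9, -0.35 to 0.64 for Fabp7, -0.47 to 0.75 for Slc1a3 and -0.79 to 0.0475 for Col1a1.

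Libraries of the same replicate number were not alike beyond their group. The correlation of their deviations was -0.06 to 0.05 between compartments and -0.04 to 0.09 between control and knockdown, so no pairing by number was seen. Correlations of this kind cannot exclude that libraries of 1 number share a culture, which the labels do not say. With a replicate block, the compartment difference of Vim was 2.19 in control and 1.89 in knockdown, both still called, as was Col1a1. The block turned the knockdown difference to -0.0583 for Sox10 and 0.45 for Col1a1 in somatodendritic and to -0.96 for Slc1a3 in axonal libraries. Depth limits the transcripts at low FPKM most: Sox10, Gfap, Col1a1 and Col1a2 rest on few fragments in several libraries.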

Other observations

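The 10 microglial and macrophage genes summed to 29.6 to 68.1 FPKM in control somatodendritic libraries and 5.5 to 61.8 in knockdown ones, and to 0 to 23.9 FPKM in control and 7.77 to 100.1 in knockdown axonal libraries, led by C1qb, Tyrobp and Cd68. Of 8 tested in the somatodendritic compartment none passed adjustment (limma), and Tyrobp (-2.03, SE 0.84), Itgam (-1.18, SE 0.49) and C1qa (-1.91, SE 0.78) were lower at an unadjusted p under 0.05 (3 of 8, background 9.22%). In axons 6 were tested, with a median difference of 0.86, and none passed at either level. Aif1 was listed at 0 in 19 of 20 libraries. Sensory neuron genes summed to 1.01 to 23.1 FPKM, with Pou4f1 above 0 in 18 libraries, Calca in 9 and Prdm12 in 1.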
